A study of Mus musculus with 8 samples.

Results

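Tetrahydrobiopterin is the pterin cofactor that the aromatic amino acid hydroxylases and the nitric oxide synthases need to work. This section describes the 7 genes of its synthesis and recycling (Gch1, Gchfr, Pts, Spr, Pcbd1, Pcbd2 and Qdpr) in mouse prefrontal cortex. The genes were chosen by name as members of the pathway, out of 23983 genes tested. Pcbd1 was picked because it was higher on the arrays labelled Mll1 Ko, so its values are given as a description without a test, while the other 6 keep the test of the fit over all genes.

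The samples were 4 prefrontal cortices of mice labelled Mll1 Ko and 4 of wild-type (WT) mice, all male, 12 weeks old, kept singly for a week and taken under resting conditions, with 1 array per mouse. Mll1, now named Kmt2a, encodes a histone methyltransferase that marks lysine 4 of histone H3. The labels give neither strain, Cre driver nor the deleted exons, and only the title of the series places the loss in neurons. The tissue is bulk cortex, in which non-neuronal cells and any neurons that escape deletion contribute RNA. Signals are log2 values after RMA, a background correction, normalization and summary over the probes of a transcript cluster, so a difference of 1 is a doubling. Precision rests on having 4 arrays a genotype, since arrays have no read depth.

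In the pathway, Gch1 encodes the enzyme that opens the ring of GTP and sets the rate of synthesis, and Gchfr encodes the protein through which the cofactor feeds back on it. The products of Pts and Spr then complete tetrahydrobiopterin. After each hydroxylation the cofactor leaves as a carbinolamine, which the dehydratases encoded by Pcbd1 and Pcbd2 convert to a quinonoid dihydropterin, and the Qdpr product reduces that back to tetrahydrobiopterin. In the brain the cofactor is best known from the monoaminergic cell groups, whose axons reach the cortex while their cell bodies lie in the brain stem.

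The Kmt2a protein carries a CXXC domain, which binds unmethylated CpG dinucleotides, so the sequences before the gene starts are shown for Pcbd1, for its paralogue Pcbd2 and for Gchfr. They are the 250 bases upstream of the start that RefSeq lists (build GRCm38.p6), all on the plus strand and read 5′ to 3′, with each CG in capitals. The array data themselves hold no measurement at these sequences. The windows are chr10:61089081-61089330 for Pcbd1, chr13:55727118-55727367 for Pcbd2 and chr2:119167538-119167787 for Gchfr.
Pcbd1: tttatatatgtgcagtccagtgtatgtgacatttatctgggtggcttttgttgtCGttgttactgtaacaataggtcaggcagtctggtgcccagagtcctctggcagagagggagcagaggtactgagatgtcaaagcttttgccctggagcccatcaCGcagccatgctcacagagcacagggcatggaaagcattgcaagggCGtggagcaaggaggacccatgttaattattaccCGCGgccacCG
Pcbd2: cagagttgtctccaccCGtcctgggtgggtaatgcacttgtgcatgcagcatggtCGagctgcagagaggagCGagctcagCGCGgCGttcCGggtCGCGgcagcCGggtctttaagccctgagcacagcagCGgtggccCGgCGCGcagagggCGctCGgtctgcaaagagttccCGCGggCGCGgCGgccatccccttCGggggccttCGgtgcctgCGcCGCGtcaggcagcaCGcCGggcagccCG
Gchfr: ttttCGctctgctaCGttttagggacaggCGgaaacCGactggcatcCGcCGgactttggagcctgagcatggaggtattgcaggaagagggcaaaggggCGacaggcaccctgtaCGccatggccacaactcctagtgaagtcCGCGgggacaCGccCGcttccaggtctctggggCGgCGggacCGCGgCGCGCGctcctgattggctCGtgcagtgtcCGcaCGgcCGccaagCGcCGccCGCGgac

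The Pcbd1 window held 6 CpG, equal to the median of all 32851 upstream windows of this length in the table, and 49.6% of those windows held fewer. The Pcbd2 window held 29 CpG and the Gchfr window 27, more than in 93.2% and 91.4% of the windows. The other members lay between these, with 21 CpG before Qdpr, 17 before Gch1, 17 before Pts and 14 before Spr. Pcbd1 thus had the fewest CpG of the 7 members. In the 50 bases after the start Pcbd1 held 4 CpG, within the range of 2 to 8 over the 7 members, and the median of all windows there was 1. These counts describe letters only, and methylation or binding was not measured.

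Facts about the arrays as a whole come before the members' values. The median signal of an array was 7.99 to 8.0 on the Mll1 Ko arrays and 8.04 to 8.08 on the WT arrays. The lower quartile was 6.80 to 6.83 and 6.89 to 6.94. Neither range overlapped between genotypes, so the distribution of the deposited values differed between them, which enters the differences of the main fit. It was not 1 constant offset, since the median difference ran from -0.12 to 0.068 over classes of signal level. On the arrays labelled Mll1 Ko the signal of Kmt2a itself was 10.42, 10.38, 10.29 and 10.30, against 9.94, 10.13, 10.12 and 10.06 on the WT arrays. The targeted gene therefore had a higher signal on the arrays that carry the Mll1 Ko label, by 0.285 ± 0.06 log2 (SE; limma, adjusted p = 0.0142, and 0.0601 without WT replicates 1 and 4). A single cluster stands for Kmt2a and the labels do not say which part was deleted, so this signal does not check the labels, and all directions rest on the labels as given. In a principal component analysis WT replicate 1 lay apart on the component that separated the genotypes, at -20.3 against -8.2 to -7.5 for the other WT arrays and 9.2 to 13.6 for the Mll1 Ko arrays. WT replicate 4 lay apart on the next component, at -19.2, with the other 7 arrays at -1.0 to 8.1. Results that depend on these arrays are also given without them.

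Pcbd1 (cluster 10363455), the gene of the dehydratase, was the member with the largest difference. Its signal was 9.55, 9.68, 9.79 and 9.89 on the Mll1 Ko arrays and 8.82, 8.80, 8.87 and 8.93 on the WT arrays. All Mll1 Ko values lay above all WT values, and the lowest of them exceeded the highest WT value by 0.62 log2. The means were 9.73 ± 0.15 on the Mll1 Ko arrays and 8.86 ± 0.06 on the WT arrays (SD, n = 4 and 4), a difference of 0.87 ± 0.07 log2 (SE) or a signal ratio of 1.83, which made it the fifth largest rise among all genes tested. In the authors' deposited table the bi-weight means of Pcbd1 were 9.73 (ko) and 8.85 (wt), with a signed fold of -1.84, where a negative sign means higher in ko. Under the 19 processing alternatives the difference lay between 0.818 and 0.934, and it was 0.892 without WT replicates 1 and 4. Pcbd1 was picked for its rise and its groups lie apart, so leaving out arrays could not turn the sign. Alternatives that change only the model, such as the unmoderated test, left the difference at 0.873. The kept direction is therefore a description and tests nothing. In bulk tissue a change in the number of cells that express a gene and a change in its RNA per cell cannot be told apart.

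Pcbd2 (10405545), which encodes the paralogous dehydratase, did not show this pattern. It had 8.99, 8.86, 8.91 and 8.77 on the Mll1 Ko arrays and 9.05, 8.98, 9.01 and 8.78 on the WT arrays. The groups overlapped, with replicate 4 the lowest in each. The difference was -0.07 ± 0.07 log2 (SE, 95% interval -0.222 to 0.077) and did not pass (limma, adjusted p = 0.466; exact two-sided permutation p = 0.3714). Qdpr (10529895), which follows the dehydratases in recycling, had 11.05, 11.03, 10.94 and 10.95 on the Mll1 Ko arrays and 10.96, 11.04, 11.03 and 10.92 on the WT arrays. These ranges nearly coincide, and the difference was 0.005 ± 0.05 (95% interval -0.105 to 0.115, limma, adjusted p = 0.954). Its sign turned under quantile normalization, to -0.061.

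**Figure D1:**
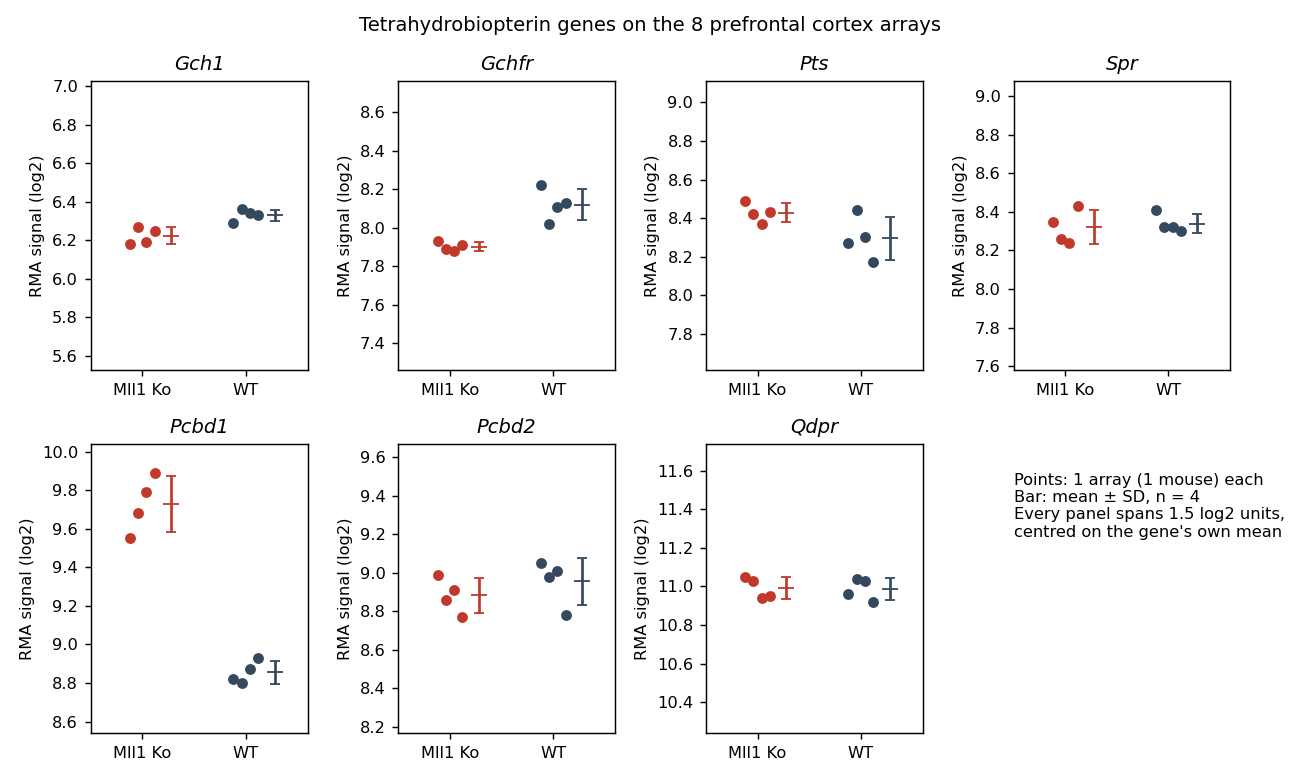
RMA signal (log2) of the 7 tetrahydrobiopterin genes on each array, with the mean and SD of 4 arrays beside the points; each panel has its own centre but the same span. Pcbd1 stands at 9.55 to 9.89 on the Mll1 Ko arrays and 8.80 to 8.93 on the WT arrays, Gchfr and Gch1 are lower on the Mll1 Ko arrays without overlap in these deposited values (the Gch1 difference is 0.002 after cyclic loess), and the other 4 genes overlap.

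On the synthesis side Gchfr (10474915) fell. Its signal was 7.93, 7.89, 7.88 and 7.91 on the Mll1 Ko arrays and 8.22, 8.02, 8.11 and 8.13 on the WT arrays. The groups did not overlap, with a gap of 0.09 log2, and the Mll1 Ko values lay within 0.05 of each other. The difference was -0.22 ± 0.05 log2 (SE), a signal 1.16-fold higher in WT, and passed the threshold of 0.05 (limma, adjusted p = 0.0264; exact permutation p = 0.0286, the smallest that 4 against 4 allows). Of the 6 members tested it was the 1 that passed, downward, and none passed upward, against a background of 5.69% of all genes lower and 5.15% higher, or 10.8% in either direction. The call did not hold throughout: it ended after quantile normalization (-0.158, adjusted p = 0.0961) and without WT replicates 1 and 4 (-0.163, adjusted p = 0.095), and 10 of 19 alternatives kept it. The authors' deposited table gave Gchfr an FDR p-value of 0.050105 and a signed fold of 1.16, higher in wt.

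Gch1 (10419288), the gene of the rate-limiting enzyme, was dim. It had 6.18, 6.27, 6.19 and 6.25 on the Mll1 Ko arrays and 6.29, 6.36, 6.34 and 6.33 on the WT arrays. The groups were apart by 0.02 log2, and all 8 values lay below the lower quartile of every array (6.80 to 6.83 on Mll1 Ko arrays and 6.89 to 6.94 on WT arrays). Whether this signal exceeds background was not tested. The difference of -0.11 ± 0.05 (SE) did not pass (limma, adjusted p = 0.126; exact permutation p = 0.0286, the smallest possible). Genes of like level (mean signal 6.116 to 6.91) had a median difference of -0.12, and after quantile normalization the Gch1 difference was -0.016, and after cyclic loess 0.002.

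Pts (10593325), the gene of the enzyme that follows Gch1, had 8.49, 8.42, 8.37 and 8.43 on the Mll1 Ko arrays and 8.27, 8.44, 8.30 and 8.17 on the WT arrays. WT replicate 2 fell among the Mll1 Ko values and the other WT arrays lay below them. The difference of 0.13 ± 0.06 log2 (SE, 95% interval 0.001 to 0.264) did not pass (limma, adjusted p = 0.149; exact permutation p = 0.1143), and it was 0.057 without WT replicates 1 and 4. Spr (10545807), whose product makes the last reduction, had 8.35, 8.26, 8.24 and 8.43 on the Mll1 Ko arrays and 8.41, 8.32, 8.32 and 8.30 on the WT arrays. The Mll1 Ko range enclosed the WT range, and the difference was -0.02 ± 0.05 (95% interval -0.137 to 0.102, limma, adjusted p = 0.843), with a sign that turned after quantile normalization (0.015). A cluster named for the pseudogene Spr-ps1, whose transcript may share probes with Spr, had 8.74, 8.65, 8.90 and 8.89 on the Mll1 Ko arrays and 9.09, 8.91, 9.10 and 8.94 on the WT arrays. It was chosen for its name after its values were seen, and its difference of -0.22 ± 0.07 did not pass (limma, adjusted p = 0.066). How far the signals of Spr and Spr-ps1 can be told apart was not tested.

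Of the 6 members other than Pcbd1, 0 lay wholly above WT on the Mll1 Ko arrays, 2 lay wholly below and 4 overlapped, where 9.47% of all genes lay above and 10.1% below (19.5% in either direction). Their median difference was -0.045 log2, close to the -0.032 of all genes tested. The pooled SD within groups was 0.038 for Gch1, 0.111 for Pcbd1 and between these for the other members, against a median of 0.085 over all genes.

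The difference of a gene moved with its level on these arrays. In the class of Pcbd1 (mean signal 9.146 to 9.702) the median difference was 0.058 and 9.26% of 2398 genes rose, while 2.04% fell. In the class of Gchfr (7.85 to 8.252) the median was -0.075, and 7.46% of 2399 genes fell while 2.04% rose. After quantile normalization, which makes the arrays' distributions equal, the difference was 0.837 for Pcbd1 and -0.158 for Gchfr.

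**Figure D2:**
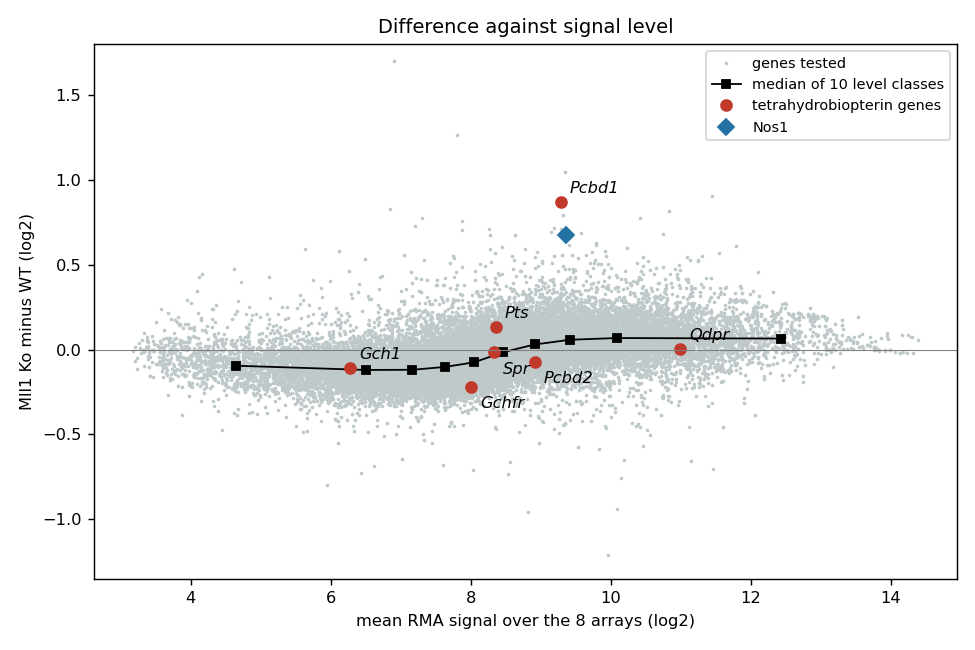
Difference (Mll1 Ko minus WT, log2) against mean RMA signal (log2) for all 23983 genes tested in grey, the 7 tetrahydrobiopterin genes in red and Nos1 in blue; black squares join the medians of 10 classes of equal size. Class medians run from -0.12 among dim genes to 0.068 among bright ones, Gch1 lies on that line, and Pcbd1 lies at 0.87.

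Among the enzymes that use tetrahydrobiopterin, Nos1, the gene of neuronal nitric oxide synthase, rose and none of the other 7 genes of the list passed. Nos1 (10524909) had 9.53, 9.65, 9.59 and 10.04 on the Mll1 Ko arrays and 9.03, 9.03, 8.96 and 9.10 on the WT arrays. All Mll1 Ko values lay above all WT values, with Mll1 Ko replicate 4 the highest, as it was for Pcbd1. The difference of 0.67 ± 0.095 log2 (SE), a signal ratio of 1.59, passed (limma, adjusted p = 0.00301), and it passed in each of the 19 alternatives, with 0.56 without Mll1 Ko replicate 4 and 0.632 after quantile normalization. The inducible and endothelial isoform genes Nos2 and Nos3 were at -0.13 ± 0.06 and -0.10 ± 0.05 and did not pass (limma, adjusted p = 0.149 and 0.168). The authors' deposited table gave Nos1 a signed fold of -1.48, higher in ko, with an FDR p-value of 0.041489.

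Th and the tryptophan hydroxylase genes, whose cofactor Pcbd1 and Qdpr regenerate, did not pass in either direction. Th, which makes the precursor of dopamine and noradrenaline, averaged 8.44 ± 0.09 on the Mll1 Ko arrays and 8.73 ± 0.26 on the WT arrays (SD, n = 4 and 4), with a difference of -0.29 ± 0.11 (SE, limma, adjusted p = 0.0916). WT replicates 1 and 4 were the 2 highest for Th, and without them the difference was -0.078. Tph2, the neuronal tryptophan hydroxylase, was at -0.195 ± 0.06 (limma, adjusted p = 0.06) and had all 8 values below the lower quartile of the arrays. Tph1 was at -0.04 ± 0.07, and Agmo, an ether lipid oxygenase that also uses the cofactor, was at 0.03 ± 0.07.

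Genes that supply GTP to Gch1 had 2 rises and no falls among 7, where 5.15% of all genes rose and 5.69% fell. Impdh2, the enzyme that commits purine synthesis to guanine nucleotides, had 8.87, 8.83, 8.86 and 8.89 on the Mll1 Ko arrays and 8.60, 8.66, 8.62 and 8.48 on the WT arrays. The groups were apart, and the difference of 0.27 ± 0.05 log2 (SE) passed (limma, adjusted p = 0.0108), also in each of the 19 alternatives (0.222 to 0.334). Guk1, guanylate kinase, rose by 0.26 ± 0.07 (limma, adjusted p = 0.0315), but not after quantile normalization (adjusted p = 0.107). The median of the list was 0.178, and all 7 differences were positive, although that of Hprt turned to -0.001 after cyclic loess. These 7 genes lie in the level classes from 8.684 upward, in which the medians of all genes were 0.03 to 0.068 and 7.21% to 13.9% rose. With quantile normalization 1 gene of the list, Impdh2, still passed and the median was 0.128.

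The remaining lists gave small differences of either sign. Among 5 reductases that can act on pterins by salvage or side routes, Cbr1, a carbonyl reductase, rose by 0.255 ± 0.07 log2 (SE, limma, adjusted p = 0.0366), and the median of the list was 0.012. Of 10 monoamine genes 1 rose and 2 fell, with a median of -0.114. The dopamine transporter gene Slc6a3 fell by 0.19 ± 0.05 and the vesicular transporter gene Slc18a2 by 0.22 ± 0.06 (limma, adjusted p = 0.0307 and 0.0425). In their level classes the medians of all genes were -0.075 and -0.102, and 7.46% and 10.1% of genes fell. After quantile normalization the calls of Cbr1, Slc6a3 and Slc18a2 were lost (limma, adjusted p 0.0944 to 0.218). Over all 33 genes of the 5 lists 5 rose and 3 fell, against 5.15% higher and 5.69% lower over all genes. After quantile normalization 2 rose, Nos1 and Impdh2, and none fell, against 2.86% higher and 1.58% lower over all genes there (4.44% in either direction). Without WT replicates 1 and 4 the counts were likewise 2 higher, again Nos1 and Impdh2, and none lower.

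**Figure D3:**
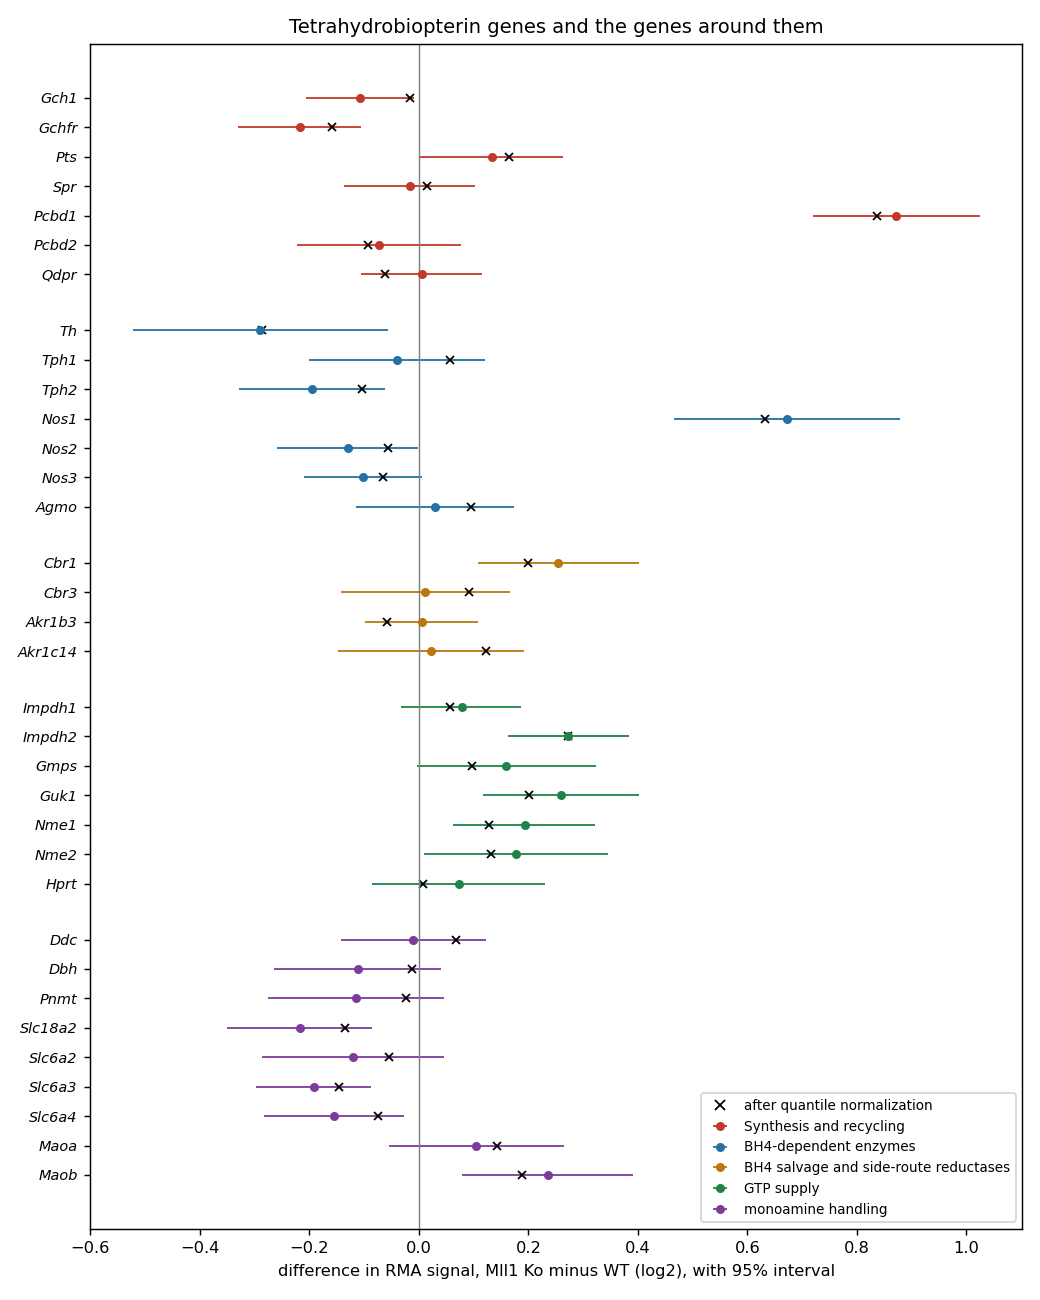
Difference (Mll1 Ko minus WT, log2, limma) with its 95% interval for the 7 members and genes of 4 related lists, with crosses for the value after quantile normalization. Pcbd1 and Nos1 lie apart at 0.87 and 0.67, and the other differences lie between -0.29 and 0.27.

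Markers of cell types were read beside these results. Of 56 marker genes tested in 9 lists none rose and 7 fell (limma), against 5.15% higher and 5.69% lower over all genes, and without WT replicates 1 and 4 none rose and 4 fell. After quantile normalization none rose and 7 fell, against 2.86% higher and 1.58% lower over all genes there. Of 7 excitatory neuron markers 3 fell, among them Tbr1, a transcription factor of cortical projection neurons, at -0.455 ± 0.06 log2 (SE, adjusted p = 0.00236), and the list's mean level was 10.86 to 11.0 on Mll1 Ko arrays and 11.12 to 11.23 on WT arrays. The bright excitatory marker Camk2a was at -0.02 ± 0.04. Nos1 is also known as a marker of some GABAergic neurons, and of 7 GABAergic markers Gad1 and Dlx1 fell (-0.20 ± 0.05 and -0.41 ± 0.06; the Gad1 call ended without WT replicates 1 and 4, at -0.158 with limma's adjusted p = 0.141), with list levels of 10.02 to 10.08 on Mll1 Ko arrays and 10.09 to 10.20 on WT arrays. Sst, which is found with Nos1 in some of these neurons, was at 0.21 ± 0.08 with overlapping groups and did not pass (limma, adjusted p = 0.0944). After quantile normalization Sst was at 0.158 (limma, adjusted p = 0.379). None of 7 oligodendrocyte, 7 astrocyte, 7 microglia, 7 endothelial and mural or 6 choroid plexus markers passed, and 1 of 6 striatal and 1 of 2 erythroid markers fell. Differences were negative for all 7 oligodendrocyte, 3 astrocyte, 1 microglia, 6 endothelial and mural and 5 choroid plexus markers. The oligodendrocyte median was -0.085 and the microglia median 0.098. Mog, an oligodendrocyte marker named after its values were seen, passed after cyclic loess (-0.259, limma, adjusted p = 0.0421) but not after quantile normalization (adjusted p = 0.0593). The erythroid call, Alas2 at -0.22 ± 0.05, ended after quantile normalization (limma, adjusted p = 0.123) and without WT replicates 1 and 4 (adjusted p = 0.1). Among the choroid plexus markers Ttr, named after its values were seen, had 7.72, 7.03, 6.94 and 7.0 on the Mll1 Ko arrays and 9.35, 7.16, 7.18 and 7.21 on the WT arrays, so that WT replicate 1 and, less so, Mll1 Ko replicate 1 were high. The mean level of the choroid plexus list was 7.32 to 7.5 on Mll1 Ko arrays and 7.43 to 7.91 on WT arrays. The mean level of the striatal list was 9.96 to 10.16 on Mll1 Ko arrays and 10.07 to 10.24 on WT arrays, that of the erythroid pair 8.86 to 9.18 on Mll1 Ko arrays and 9.26 to 9.43 on WT arrays. The astrocyte list had 10.47 to 10.58 on Mll1 Ko arrays and 10.49 to 10.53 on WT arrays. No marker lay below the lower quartile on all 8 arrays. The part of any cell type in the differences of the tetrahydrobiopterin genes was not tested.

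The genes next to Pcbd1 on its chromosome, in the order of the RefSeq table, were at much smaller differences. Pcbd1 was picked for its rise, so this contrast was likely beforehand and tests nothing about the locus. Pldi, Unc5b and Slc29a3 on the side of lower coordinates were at -0.21 ± 0.07, -0.07 ± 0.05 and -0.03 ± 0.06 log2 (SE), and none passed (limma, adjusted p 0.0676 to 0.729). On the other side Sgpl1, the adjoining gene, was at -0.01 ± 0.05, Tbata fell by 0.27 ± 0.07 (limma, adjusted p = 0.0276, and 0.13 after quantile normalization) and Adamts14 was at -0.14 ± 0.05. None of the 6 neighbours rose and only Tbata fell, where 5.15% of all genes rose and 5.69% fell.

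Likeness to Pcbd1 was measured by Pearson r over the 8 arrays, as a description. By the values themselves the 5 most alike of 17234 named genes were Hpcal1, Smarcd3, Mmd2, Pea15a and Fstl5 (r 0.99 to 0.993, Spearman rho 0.922 to 0.994). All 5 were higher on the Mll1 Ko arrays, by 0.217 to 0.573 log2, and since the groups lie apart such an r mostly repeats the difference between them. By deviations from the group means the 5 most alike included Serping1, Fthl17c, Gata6 and Aqp9 (r 0.957 to 0.993), of which Serping1 had a positive difference (0.117) and the other named genes negative ones (-0.225 to -0.13). By the same deviations Nos1 had an r of 0.761 with Pcbd1, Gch1 0.304, Spr 0.121, Gchfr -0.047, Pts -0.527, Pcbd2 -0.722 and Qdpr -0.757. The arrays on which Pcbd1 was high within its group tended to be those on which Pcbd2 and Qdpr were low. This rests on only 4 arrays a group, which share any array-wide shift. How many of all genes reach such an r was not counted, so no relation within the pathway is drawn from it.

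**Figure D4:**
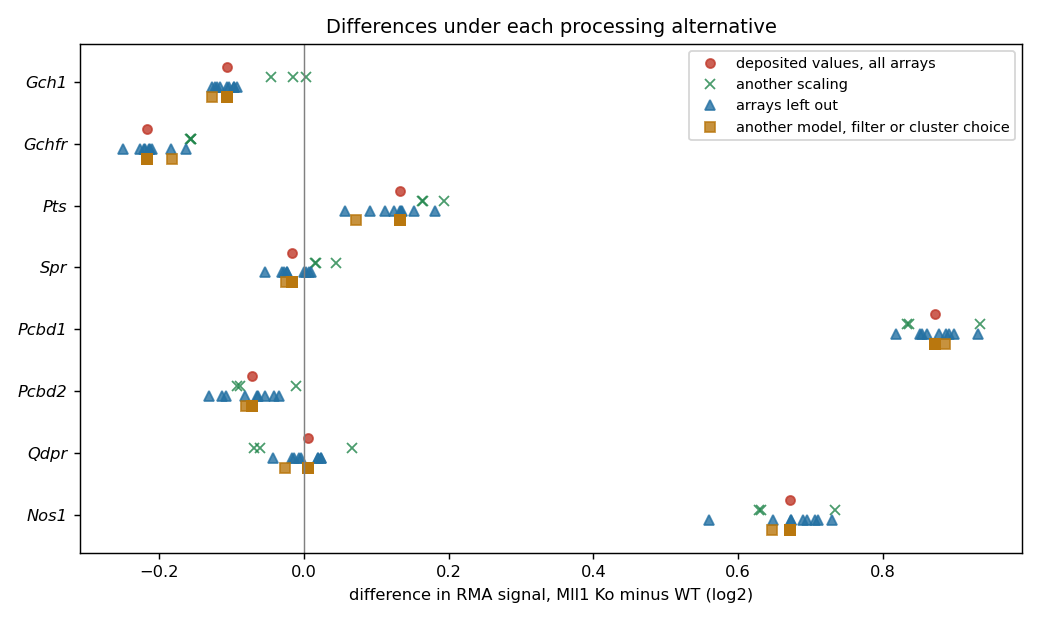
Difference (Mll1 Ko minus WT, log2) of the 7 members and Nos1 with the deposited values and under each alternative. Pcbd1 stays between 0.818 and 0.934 and Nos1 between 0.56 and 0.734, Gchfr stays negative (-0.251 to -0.156), and Qdpr and Spr lie on both sides of 0.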

How the data were processed

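Expression was measured in 8 prefrontal cortices, 4 labelled Mll1 Ko and 4 wild-type, on 1 Affymetrix array each. The deposited values are log2 signals of 35556 transcript clusters. Affymetrix Expression Console, RMA and Transcriptome Analysis Console 3.0 are named, per the submitters' processing notes, without role or order. The genome build is not given in the sources used here, nor is the array model. The authors' table of 28944 clusters holds bi-weight mean log2 signals, a signed linear fold score (wt over ko), and, per the file headers, p-values from an ANOVA with their FDR adjustment.

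Gene names came from that table, which gave 25400 clusters 1 gene. The cluster with the highest mean stood for a gene, and each member had 1 cluster. Differences (Mll1 Ko minus WT) were fitted with limma 3.58.1 in R 4.3.3 (lmFit, eBayes, no covariate, no filter), with Benjamini-Hochberg adjustment over all 23983 genes and a threshold of 0.05; exact two-sided permutation tests stood beside it for members other than Pcbd1. The procedure was tested on simulated data, drawn independently for each gene. The simulated arrays had no array-wide or level-dependent shift, so they cannot show how such shifts affect the calls. The members, gene lists and the rule for named genes (all members, Kmt2a, per pathway list up to 4 passing genes with the lowest p, marker genes that passed or were brightest, 3 neighbours a side, the 5 genes most like Pcbd1) were chosen with earlier results of these data known. Spr-ps1 and pathway genes outside that rule were named after their values were seen. The 5 pathway lists and 9 marker lists are described by counts and medians; some of their genes, and 1 pathway list beyond its part in the total, are not reported here. P-values rest on the spread between arrays, taken as separate mice since the design text counts 4 cortices per genotype. At most 1339 clusters had the same value on both arrays of a pair, so no array was a copy of another. That count cannot show that the arrays came from separate mice. The values gave no sign that replicate numbers pair the arrays: same-numbered arrays had deviations correlated at -0.008 to 0.024. This cannot exclude that same-numbered mice were paired in the experiment. Upstream sequences are from RefSeq (GRCm38.p6), matched by symbol for all 7 members.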

Additional observations from a re-analysis of the deposited data

Results flagged for a closer look

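Of 32 groups of 4 arrays (the 7 members, the named pathway genes and Kmt2a, in each genotype) none had an array far enough from the other 3 to be noted by Dixon's criterion at the 95% level.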

How the results depend on the processing

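Each result was recomputed under 19 alternatives, 18 for Gch1, which a filter on dim genes removed. Pcbd1, Pts, Gchfr and Pcbd2 kept their direction in all of them, and of the members' calls only that of Gchfr changed. For Pcbd1, picked for its rise, the kept direction was likely beforehand. It ended after quantile normalization (-0.158), cyclic loess (-0.157), subtraction of array medians (-0.156), the unmoderated test per gene (-0.217, adjusted p = 0.0522) and without WT replicates 1 and 4 (-0.163). With 1 array left out Gchfr ranged from -0.251 to -0.184, with adjusted p 0.0268 to 0.0769, and the call ended without WT replicate 1 (-0.184) or Mll1 Ko replicate 1, 2 or 3 (-0.227, -0.213 and -0.210). Differences near 0 turned sign: Gch1 to 0.002 after cyclic loess; Spr to 0.015 after quantile normalization, 0.016 after cyclic loess, 0.044 with array medians subtracted, and 0.007, 0.003 and 0.009 without WT replicate 1, Mll1 Ko replicate 2 or Mll1 Ko replicate 3 (range -0.054 to 0.009 with 1 array left out); Qdpr to -0.061 after quantile normalization, -0.069 after cyclic loess, -0.026 with array weights, -0.043 without WT replicates 1 and 4, and -0.004, -0.017, -0.014 and -0.007 without WT replicate 1 or 4 or Mll1 Ko replicate 1 or 2 (range -0.017 to 0.023).

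Over all genes 1236 were higher and 1364 lower. These counts were 686 and 379 after quantile normalization, 746 and 437 after cyclic loess, 2845 and 482 with array medians subtracted, 552 and 384 with the unmoderated test, 424 and 395 without WT replicates 1 and 4, 254 and 130 at an adjusted p under 0.01, and 2237 and 3263 under 0.1. With array weights 2469 were lower. With the replicate number as a block, which the data give no sign of pairing, 799 were higher and 759 lower, and no member's call changed. With 1 array left out the counts ranged from 398 to 1506 higher and 313 to 1755 lower. Among the 33 pathway genes, 5 higher and 3 lower became 2 and 0 after quantile normalization, cyclic loess or without WT replicates 1 and 4, 8 and 0 with array medians subtracted, 2 and 1 with the unmoderated test, and 2 to 8 and 0 to 3 with 1 array left out. Array weights gave 5 lower and the replicate block 0 lower. Subtraction of array medians moved the median difference over all genes from -0.032 to 0.029. The counts at 0.01 and 0.1 differ from the main ones only by the threshold. Beyond this and the smaller number of arrays in some fits, the cause of the changes was not tested. Signals of Gch1 and Tph2 below the lower quartile limit what their differences can show.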

Other observations

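The letters of some promoter motifs were searched in the 250 bases upstream of each member, on both strands. GGGCGG occurred in the windows of Gch1, Pts, Spr, Gchfr and Qdpr and in 32.7% of all 32851 windows, and not in those of Pcbd1 and Pcbd2. CCAAT occurred before Gch1, Gchfr and Qdpr and in 33.8% of all windows. TATAAA occurred, on the reverse strand, before Gch1 and at bases 1 to 6 of the Pcbd1 window, and in 12.4% of all windows. CACGTG and TGACGTCA, found in 6.02% and 1.55% of all windows, occurred before none of the 7 members. These matches describe letters and draw nothing about the factors.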
